A study of Mus musculus with 6 samples.

Results

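The genes Gabra2, Gabra4, Gabrb1 and Gabrg1 encode 4 subunits of the GABA-A receptor and lie next to each other on mouse chromosome 5. They were taken by name from the count tables, 4 of 23282 rows, as neighbours in one gene cluster. They were selected on their tag counts in these 6 libraries, with the difference between the genotypes known, so that difference is described here with its error and without a p-value. The GABA-A receptor is the chloride channel through which GABA inhibits neurons, and each receptor is built of 5 subunits, usually alpha, beta and gamma or delta. The alpha and gamma subunits shape its response to benzodiazepines. The genes lie in groups on a few chromosomes, each group holding members of more than 1 subunit class.

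RNA came from the hippocampus of C57BL/6 mice aged 16 weeks, in 3 libraries labelled PHF2 t/g and 3 labelled WT (wild type). PHF2 is a histone demethylase of the Jumonji family. The label t/g was taken to mean a transgene of Phf2; the sources used here name neither its construct and promoter nor the C57BL/6 substrain of either group. The labels give separate samples but do not say that they are separate animals, so errors measure the spread between these libraries, which may be technical. The 3′ end method used (QuantSeq) reads about 1 tag per transcript, so a count does not scale with transcript length. The PHF2 t/g libraries held 6053363 to 8612720 counts, and the WT libraries held 5512171 to 8844718. Levels are tag counts per 1e6 tags of the library (CPM) scaled by TMM. Phf2 itself was at 35.5, 37.35 and 43.1 CPM in PHF2 t/g, against 38.3, 35.6 and 39.3 CPM in WT, and did not pass edgeR's quasi-likelihood test (adjusted p = 0.929). Whether the transgene carries the 3′ end of the gene is not known here, so the tags may miss its transcripts and do not check the labels. WT replicate 2 stood apart from the other WT libraries, at a chi-square of 9.59 and 9.9 per gene against 3.63 between WT replicates 1 and 3. Some results that rest on it are also given without it, and for others its value is named. Of the marker genes of hippocampal pyramidal and granule neurons listed for the labelled tissue, 12 of 12 passed the low-count filter, with a summed level of 1194 to 1417 CPM in PHF2 t/g, with 1352 to 1441 CPM in WT. Neurod2 (means of 531.3 and 570.5 CPM) and Mpped1 (417.5 and 477.5 CPM) made up most of it. Some less abundant markers varied widely over the 6 libraries, with C1ql2 at 1.29 to 9.80 CPM and Fibcd1 at 7.88 to 40.9 CPM. Calb1 varied less, at 47.35 to 58.1 CPM.

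In RefSeq annotation of GRCm38 (mm10) the cluster spans 1398526 bases. Gabrg1 (70751047 to 70842617) and Gabra2 (70958392 to 71095849) are transcribed from the minus strand and lie 115.8 kb apart. Gabra4 (71569734 to 71658308, minus strand) follows after 473.9 kb, with Cox7b2 inside this gap. Gabrb1 (71657921 to 72149572, plus strand) is divergent from Gabra4, and the 5′ ends of these genes overlap by 388 bases. As the tags come from 3′ ends, this overlap does not mix their counts. The last 1000 bases of the GENCODE coding transcripts of each member shared no run longer than 14 bases with those of any of the other 18 subunit genes. In GENCODE the 3′ end of Gabra2 lies 795 bases beyond that of RefSeq. The sources used here do not name the annotation used for counting, so whether tags at the farther end were counted is unknown.

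The starts of the 2 genes with the larger difference between genotypes are shown here because they are neighbours with unlike promoters. Each window is from RefSeq (GRCm38.p6) and runs 5′ to 3′ on the minus strand, from 250 bases before the annotated start to 50 after it, with CG dinucleotides in capitals.
Gabrg1, chr5:70842568-70842867: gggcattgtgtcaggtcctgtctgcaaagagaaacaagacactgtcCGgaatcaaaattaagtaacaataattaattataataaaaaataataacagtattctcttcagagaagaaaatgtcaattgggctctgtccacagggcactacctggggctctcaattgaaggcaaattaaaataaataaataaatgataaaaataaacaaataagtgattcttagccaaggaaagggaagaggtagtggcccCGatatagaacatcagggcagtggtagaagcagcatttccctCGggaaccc
Gabra2, chr5:71095800-71096099: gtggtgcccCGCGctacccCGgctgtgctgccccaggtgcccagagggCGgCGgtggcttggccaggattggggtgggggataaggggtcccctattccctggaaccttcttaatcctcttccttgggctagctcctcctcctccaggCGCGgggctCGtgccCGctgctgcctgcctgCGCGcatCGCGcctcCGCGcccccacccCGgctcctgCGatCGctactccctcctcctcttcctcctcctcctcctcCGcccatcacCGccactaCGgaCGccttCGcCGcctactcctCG
The Gabrg1 window had 38.3% G and C and 3 CG dinucleotides, and the Gabra2 window had 70% and 25. Over 32851 RefSeq promoter windows the medians were 52.7% and 7. The Gabra4 window had 58.7% and 12, and the window at the first start of Gabrb1 had 66% and 25. TATAAA, TGACGTCA (the cAMP response element) and GCGTGGGCG (an Egr site), searched on both strands, had no match in the 5 windows of the 4 genes, against 13.6%, 1.79% and 0.612% of all windows. CCAAT had 1 match each in the windows of Gabrg1, Gabra2 and Gabra4, a motif held by 37.4% of all windows. The binding site of nuclear respiratory factor 1 (NRF-1), held by 0.971% of all windows, had a match among the members in the window at the second annotated start of Gabrb1. These matches describe letters only, and binding was not measured.

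In PHF2 t/g hippocampus the tag levels of Gabrg1 and Gabra2 were 2.14 and 1.99 times those in WT, and their libraries did not overlap between the genotypes. The levels of Gabra4 and Gabrb1, which lie farther along the same cluster and were the more abundant members, overlapped between the genotypes. Thus 2 of 4 members had groups that did not overlap, both with PHF2 t/g higher, as had 10.1% of all tested genes (10.4% had PHF2 t/g lower without overlap, and 20.6% either). The genotype contrast was known when the members were chosen, so nothing is read from that count.

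Gabra2 encodes the alpha 2 subunit, found in the forebrain at synapses that include those on the axon initial segment of pyramidal cells. Its levels were 17.5, 18.7 and 15.8 CPM in PHF2 t/g, against 9.52, 8.46 and 8.32 CPM in WT. Every PHF2 t/g library was above every WT library. The means were 17.35 ± 1.5 CPM in PHF2 t/g, with 8.77 ± 0.654 CPM in WT (SD, n = 3 each), a log2 fold change of 0.99 (SE 0.16). This was the least abundant member, with 158, 132 and 98 counts in PHF2 t/g and 50, 72 and 55 counts in WT. Counting alone gives a relative error of up to 14.1% in a library, and the spread between libraries was 8.63% of the mean in PHF2 t/g and 7.46% in WT, so deeper libraries could narrow the error of a single value.

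Gabra4 encodes the alpha 4 subunit, which forms receptors with delta outside synapses, in dentate granule cells among others, and does not bind classical benzodiazepines. It was the most abundant member in 6 of 6 libraries. Its levels were 104.5, 120.8 and 99.3 CPM in PHF2 t/g, against 114, 117.6 and 136.3 CPM in WT. The groups overlapped, since the highest PHF2 t/g library lay above the lower 2 WT libraries. The means were 108.2 ± 11.3 CPM in PHF2 t/g, with 122.7 ± 12 CPM in WT (SD, n = 3 each). The log2 fold change was −0.18 (SE 0.10), with a 95% interval of −0.37 to 0.01. Such intervals use the normal distribution, so they are somewhat narrower than the edgeR test implies.

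Gabrb1 encodes the beta 1 subunit; beta subunits contribute to the GABA binding site and carry phosphorylation sites that control receptor trafficking. Its levels were 86.3, 87.05 and 75.6 CPM in PHF2 t/g, against 86.04, 47.35 and 74.3 CPM in WT. The groups overlapped, and the low WT value was that of WT replicate 2. The log2 fold change was 0.27 (SE 0.22), with a 95% interval of −0.15 to 0.70. Without WT replicate 2 it was 0.06, so the mean difference in Gabrb1 rested on that library.

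Gabrg1 encodes the gamma 1 subunit, which in rodents is abundant in the amygdala, the septum and the hypothalamus and is also expressed by astrocytes. Its levels were 32.9, 35.2 and 28.6 CPM in PHF2 t/g, against 19.2, 13.4 and 13.2 CPM in WT. The lowest PHF2 t/g library was above the highest WT library, WT replicate 1. The means were 32.2 ± 3.33 CPM in PHF2 t/g, with 15.3 ± 3.44 CPM in WT (SD, n = 3 each), a log2 fold change of 1.10 (SE 0.15). In a bulk sample, fewer cells of a type and less RNA per cell cannot be told apart, for this and each other gene.

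**Figure D1:**
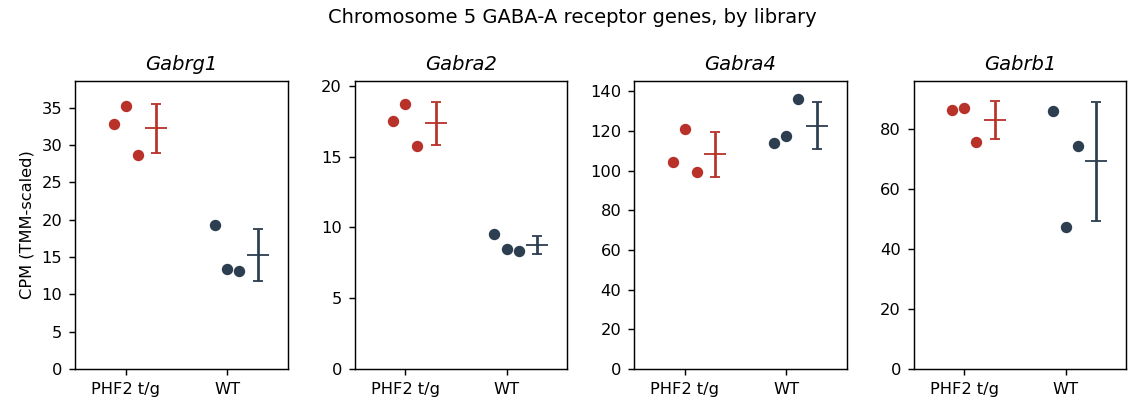
Level of each cluster gene in each library (points, TMM-scaled CPM on a linear axis from 0), with the mean and SD of each group (n = 3) to the right of the points. The PHF2 t/g libraries lie above all WT libraries for Gabrg1 (28.6 to 35.2 against 13.2 to 19.2 CPM) and Gabra2 (15.8 to 18.7 against 8.32 to 9.52 CPM), and overlap with them for Gabra4 and Gabrb1.

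The order of the tag levels was Gabra4, Gabrb1, Gabrg1 and Gabra2 in each of the 6 libraries. Within PHF2 t/g the ranges of neighbours in this order did not overlap: 99.3 to 120.8 CPM for Gabra4, 75.6 to 87.05 CPM for Gabrb1, 28.6 to 35.2 CPM for Gabrg1 and 15.8 to 18.7 CPM for Gabra2. Within WT they did not overlap either, with 114 to 136.3 CPM, 47.35 to 86.04 CPM, 13.2 to 19.2 CPM and 8.32 to 9.52 CPM in the same order of genes. The ratio of Gabra4 to Gabrb1 counts was 1.21 to 1.39 in PHF2 t/g, with 1.325 to 2.48 in WT, the highest value being that of WT replicate 2. The ratio of Gabrg1 to Gabra2 counts varied less, at 1.82 to 1.88 in PHF2 t/g, with 1.58 to 2.02 in WT libraries.

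Across the 6 libraries, where the difference between the genotypes enters the correlation, Gabrg1 and Gabra2 had the same rank order (Spearman rho 1, Pearson r 0.982 on log2 CPM). After the group means were taken out, r between them was 0.911. For Gabrg1 and Gabrb1 the corresponding values were r 0.664 across libraries and 0.678 within groups, and for Gabra2 and Gabrb1 0.575 and 0.553. Gabra4 gave r −0.609 with Gabrg1, −0.573 with Gabra2 and −0.156 with Gabrb1 across libraries, and −0.116, 0.205 and 0.213 within groups. These are descriptions over 6 libraries.

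The members were also read as shares of subunit tags. Gabrg1 made up 3.08%, 3.295% and 2.72% of the tags of all GABA-A subunit genes in PHF2 t/g, against 1.84%, 1.37% and 1.22% in WT. This was a mean share of 3.03% ± 0.29 in PHF2 t/g and 1.48% ± 0.327 in WT (SD, n = 3 each). Gabra2 made up 3.51%, 3.59% and 3.12% of alpha subunit tags in PHF2 t/g, against 1.84%, 1.62% and 1.48% in WT. Gabra4 took 20.9%, 23.2% and 19.65% of alpha tags in PHF2 t/g, against 22%, 22.6% and 24.3% in WT. Gabrb1 took 24.2%, 26.2% and 23.6% of beta tags in PHF2 t/g, against 26.8%, 18.7% and 23.5% in WT. The sum over all 6 alpha genes was 508.7 ± 11.6 CPM in PHF2 t/g, with 533.4 ± 24.3 CPM in WT, and that over 3 beta genes 336.4 ± 18.25 CPM in PHF2 t/g, with 296.8 ± 37.8 CPM in WT (SD, n = 3 each). The sums of the alpha class overlapped between the genotypes. Those of the beta class, at 320.8 to 356.5 CPM in PHF2 t/g, lay just above the WT sums of 253.2 to 320.6 CPM. The lowest WT beta sum was that of WT replicate 2, and WT replicates 1 and 3 were at 320.6 and 316.5 CPM.

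The other GABA-A subunit genes, which lie elsewhere in the genome, were not used to choose the members and were tested. None of the 7 that passed the low-count filter, out of 15 in the files, was called by edgeR's quasi-likelihood test at an adjusted p under 0.05, against 2.27% of all 12831 tested genes (291, with 100 or 0.779% higher and 191 or 1.49% lower). The total of 291 became 49, 106 and 116 without PHF2 t/g replicate 1, 2 and 3. At an unadjusted edgeR p under 0.05 the list held 2 of the 7, Gabra3 among them, against 1882 of all 12831 tested genes. DESeq2 and limma-voom also called none of the 7. The median log2 fold change of the 7 was 0.05, against 0.02 over all tested genes. Gabra3, the alpha 3 subunit on chromosome X, was at 140.6, 150.4 and 154 CPM in PHF2 t/g, against 173.4, 165.1 and 182.8 CPM in WT (log2 fold change −0.23, SE 0.08; edgeR adjusted p = 0.157). The groups did not overlap for 3 of the 7, Gabra3 among them. Gabrd, the delta subunit that pairs with alpha 4, had a log2 fold change of −0.19 (SE 0.10; edgeR adjusted p = 0.371). Gabra5 and Gabrb2 had log2 fold changes of 0.02 and 0.09.

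Of the 8 untested genes, Gabra6, Gabre, Gabrp and Gabrr3 had 0 counts in all 6 libraries, which allows up to 0.333 to 0.571 CPM in a library at the limit of 3 counts. Gabrg3 had 4 counts over PHF2 t/g and 5 over WT, Gabrr1 0 and 2, and Gabrr2 0 and 4. Gabrq, the theta subunit, had 12, 15 and 19 counts in PHF2 t/g, against 3, 9 and 6 in WT, too few to pass the filter.

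**Figure D2:**
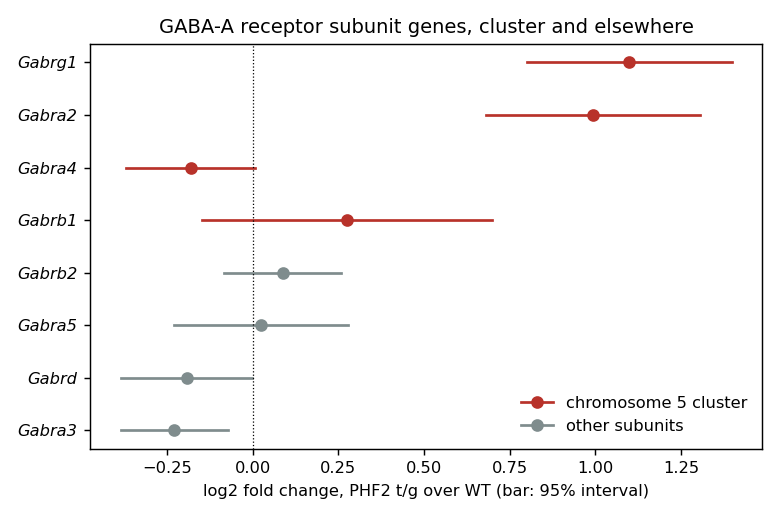
Log2 fold change (PHF2 t/g over WT, edgeR fit) of the cluster genes (above) and of Gabrb2, Gabra5, Gabrd and Gabra3 (below). Bars are 95% intervals from the SE by the normal distribution, somewhat narrower than the edgeR test implies. The bar of Gabrd leaves out 0 (−0.38 to −0.002), though its unadjusted edgeR quasi-likelihood p was 0.0624. Gabrg1 (1.10) and Gabra2 (0.99) lie to the right of the 6 other genes shown, whose values run from −0.23 to 0.27; the cluster genes were chosen with these values known.

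The lists of partner genes held 29 genes, all of them tested. They covered receptor clustering, assembly and trafficking, GABA metabolism, chloride transport, neurosteroids and the GABA-B receptor. Hap1 and Gad2 rose, 27 did not pass and none fell, against 0.779% of all tested genes called higher and 1.49% called lower. Hap1, which encodes huntingtin-associated protein 1 and promotes recycling of internalised GABA-A receptors, was at 122.9, 103.5 and 115.8 CPM in PHF2 t/g, against 76.1, 81.3 and 68.5 CPM in WT (log2 fold change 0.60, SE 0.10; edgeR adjusted p = 0.00198). Gad2, a GABA-synthesising enzyme, was at 86.3, 81.1 and 81.4 CPM in PHF2 t/g, against 59.2, 53.7 and 60.2 CPM in WT (log2 fold change 0.53, SE 0.09; edgeR adjusted p = 0.00493). Every PHF2 t/g library was above every WT library for both genes. Without PHF2 t/g replicate 1 neither was called (edgeR adjusted p = 0.0561 for Hap1 and 0.0753 for Gad2).

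Among the other clustering genes, Gphn, the gephyrin scaffold of inhibitory synapses, had a log2 fold change of 0.14 (SE 0.13; edgeR adjusted p = 0.669), and Gabarap, which acts in receptor trafficking, had −0.26 (SE 0.09; edgeR adjusted p = 0.142) and was called, as lower, without WT replicate 2. The other GABA-synthesising enzyme gene, Gad1, was at 76.8, 79.4 and 93.2 CPM in PHF2 t/g, against 99.7, 52.2 and 93.7 CPM in WT. As with Gabrb1, the lowest value was that of WT replicate 2. The chloride transporter genes Slc12a2 and Slc12a5, which set the direction of the GABA response, had log2 fold changes of −0.07 (SE 0.10) and 0.04 (SE 0.08). The GABA-B receptor genes Gabbr1 and Gabbr2 had −0.12 (SE 0.08) and −0.27 (SE 0.19). Of the neurosteroid-related genes, Dbi, which encodes a benzodiazepine receptor ligand, had the smallest p (log2 fold change −0.25, SE 0.08; edgeR adjusted p = 0.139).

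Whether the higher tag levels of Gabrg1 and Gabra2 extended to their neighbours on chromosome 5 was examined for the 78 genes of the files within 5 Mb of the cluster, of which 43 were tested. Rasl11b, a Ras-like GTPase gene, fell and 42 did not pass, a share of calls close to the 2.27% over all tested genes. The count depended on the window. Within 10 Mb 4 of 65 tested genes were called, 3 of them higher in PHF2 t/g, against 0.779% of all tested genes called higher. The libraries of the groups did not overlap for 14 of the 43, against 20.6% of all tested genes. PHF2 t/g was lower for Ociad1, Usp46, Rasl11b and Aasdh and higher for the rest of these 14. Over all tested genes 10.1% were higher and 10.4% lower without overlap. The log2 fold change was above 0 for 31 of the 43, against 6916 of all 12831 tested genes. Rasl11b lies 2045754 bases beyond the Gabrb1 end and was at 314.3, 275.4 and 243.4 CPM in PHF2 t/g, against 344.5, 381 and 358.2 CPM in WT (log2 fold change −0.38, SE 0.09; edgeR adjusted p = 0.0321). It was no longer called when PHF2 t/g replicate 2, PHF2 t/g replicate 3 or WT replicate 3 was left out, nor under scaling by library size alone, limma-voom or a non-robust fit (adjusted p up to 0.171). The nearest tested genes were Gnpda2, 1158715 bases before Gabrg1, with a log2 fold change of 0.14 (SE 0.21; edgeR adjusted p = 0.802), and Commd8, 7004 bases beyond Gabrb1, with 0.02 (SE 0.12; edgeR adjusted p = 0.96). The levels of Commd8 were 25.4, 26.1 and 25.1 CPM in PHF2 t/g, against 24.6, 24.8 and 26.3 CPM in WT. Cox7b2, a cytochrome oxidase subunit gene between Gabra2 and Gabra4, had 21 counts in all in PHF2 t/g and 12 in WT and was not tested. The median log2 fold change of the 43 tested flanking genes was 0.11, against 0.02 over all tested genes, and their range was −0.38 to 0.86. The highest of these, N4bp2, was chosen after its value was seen; it was at 2.89, 2.56 and 1.77 CPM in PHF2 t/g, against 2.28, 1.175 and 0.757 CPM in WT, and did not pass (edgeR adjusted p = 0.351).

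**Figure D3:**
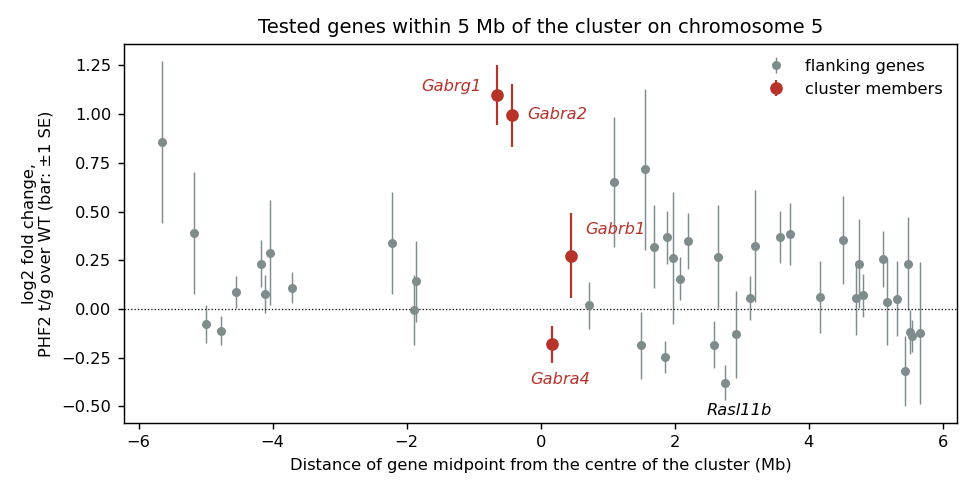
Log2 fold change (PHF2 t/g over WT, bars ±1 SE) of the tested genes within 5 Mb of the cluster against the distance of each gene's midpoint from the cluster's centre in Mb. The points of Gabrg1 (1.10) and Gabra2 (0.99) lie above those of the 43 flanking genes, which run from −0.38 (Rasl11b) to 0.86 (N4bp2, SE 0.42). Gabra4 and Gabrb1 lie among them. The cluster genes were chosen with these values known.

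Both groups carry the strain label C57BL/6. In C57BL/6J mice an intronic variant of Gabra2 is known to lower its mRNA relative to other C57BL/6 substrains, so 3 genes known to vary between these substrains were read beside it. These 3 genes were listed with earlier results of these data known. All 3 rose in PHF2 t/g, against 0.779% of all tested genes called higher, and nothing is read from that count. Nnt (chromosome 13), a mitochondrial transhydrogenase gene that is partly deleted in C57BL/6J, was at 20.8, 20.2 and 21.1 CPM in PHF2 t/g, against 9.90, 7.05 and 11.8 CPM in WT (log2 fold change 1.13, SE 0.17; edgeR adjusted p = 0.00152). Wdfy1 (chromosome 1), which encodes an endosomal adaptor protein, was at 48.3, 52.4 and 48.75 CPM in PHF2 t/g, against 22.8, 22.3 and 18.3 CPM in WT (log2 fold change 1.24, SE 0.12; edgeR adjusted p = 6.39e-06). Entpd4 (chromosome 14), a nucleotidase gene of the Golgi, was at 34.9, 30.25 and 38.1 CPM in PHF2 t/g, against 18.5, 22.8 and 25.9 CPM in WT (log2 fold change 0.61, SE 0.14; edgeR adjusted p = 0.0239). For each of them every PHF2 t/g library was above every WT library. The calls of Nnt and Wdfy1 held under the alternatives tried, and Entpd4 was no longer called when any PHF2 t/g library or WT replicate 1 was left out, by limma-voom or in a non-robust fit (adjusted p up to 0.19). The labels do not name a substrain, so for Gabra2 a difference in genotype and a difference in substrain cannot be told apart.

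**Figure D4:**
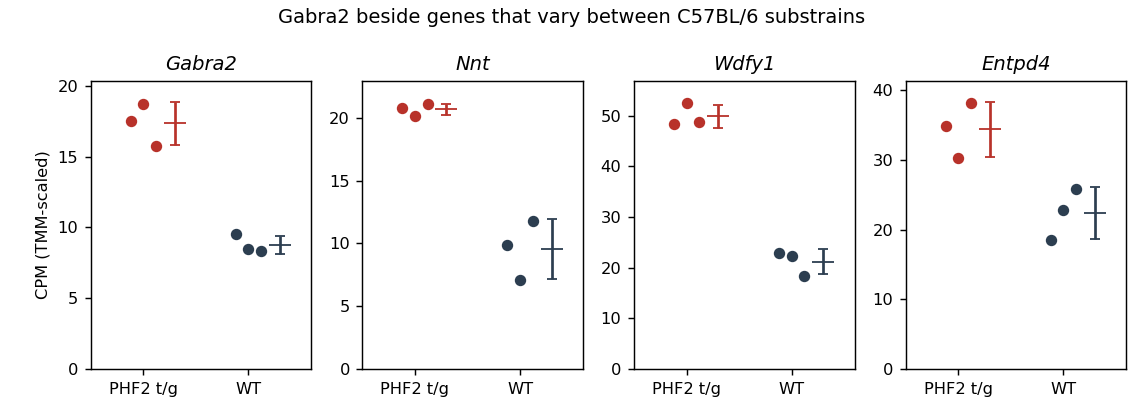
Level of Gabra2 and of Nnt, Wdfy1 and Entpd4, which vary between C57BL/6 substrains, in each library (points, TMM-scaled CPM on linear axes from 0), with the mean and SD of each group (n = 3). In each panel the 3 PHF2 t/g libraries lie above the 3 WT libraries, for Nnt at 20.2 to 21.1 against 7.05 to 11.8 CPM.

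Markers of cells and regions in which these subunits are also expressed were read in the same libraries, from lists chosen with earlier results of these data known; over all tested genes 0.779% were called higher and 1.49% lower. Of 12 astrocyte markers, all tested, none passed, at a summed level of 4036 to 4320 CPM in PHF2 t/g, with 4090 to 4262 CPM in WT. Of 17 hypothalamus markers 9 were tested, and 5 of these rose (Avp, Oxt, Trh, Irs4 and Hap1), with 2 to 5 when 1 library was left out. DESeq2 called 3 (Avp, Oxt and Hap1). Avp, Oxt, Trh and Irs4, with 6, 3, 32 and 13 counts over WT, passed the low-count filter through their PHF2 t/g libraries. The count of 5 among 9 thus depends on the difference itself, and nothing is read from it. Of the other 4, Magel2 had a log2 fold change of 1.13 (SE 0.32; edgeR adjusted p = 0.0716), Hdc −0.99 (SE 0.30; edgeR adjusted p = 0.0946), Baiap3 −0.13 and Pomc −0.07. The summed level of the list was 233.5 to 251.8 CPM in PHF2 t/g, with 151.6 to 171.7 CPM in WT, and 128.7 to 136 against 82.95 to 95.6 CPM without Hap1, which is also in the receptor lists. The sums overlapped without Hap1, Avp and Oxt, a choice made after their values were seen. They were 84.1 to 95.25 CPM in PHF2 t/g, with 82.25 to 95.2 CPM in WT. Baiap3 made up most of what was left (mean CPM, PHF2 t/g first, 66.4 and 72.8). The overlap thus does not describe the less abundant genes. By the same means Trh (6.43 and 1.54), Irs4 (2.87 and 0.62) and Magel2 (4.09 and 1.89) were higher without overlap. Hdc (2.97 and 5.99) was lower without overlap, and Pomc (1.655 and 1.77) overlapped. Avp averaged 27.3 CPM in PHF2 t/g, with 0.284 CPM in WT, and Oxt 16.05 CPM in PHF2 t/g, with 0.129 CPM in WT. Among the untested markers Otp had 0 counts in all libraries. Over PHF2 t/g and WT, Hcrt had 7 and 9 counts, Pmch 12 and 14, Agrp 4 and 2, and Sim1 1 and 2. Gal had 32 and 5, Calcr 15 and 4, and Nkx2-1 13 and 6. Of 11 striatum markers 10 were tested and 3 rose (Penk, Tac1 and Rgs9), with 2 or 3 when 1 library was left out. Of these 10, 9 had log2 fold changes above 0 and 1 below, Adora2a at −0.33 (SE 0.12, edgeR adjusted p = 0.169). Drd2, untested, had 1 count over PHF2 t/g and 3 over WT. The summed level of the striatum list was 821.5 to 944.8 CPM in PHF2 t/g, with 633.5 to 728 CPM in WT. Of 8 amygdala and septum markers, all tested, Dlk1 rose and Cyp26b1 fell (0 to 2 lower with 1 library left out), at 326.6 to 337.6 CPM in PHF2 t/g, with 286.7 to 331.3 CPM in WT. Of 12 interneuron markers Gad2 rose and Sst fell, with 0 to 2 in each direction when 1 library was left out, at 1385 to 1422 CPM in PHF2 t/g, with 1446 to 1501 CPM in WT. Of 8 oligodendrocyte lineage markers Mag fell (0 or 1 with 1 library left out), at 2191 to 2237 CPM in PHF2 t/g, with 1948 to 2229 CPM in WT, and of the 12 hippocampal neuron markers Wfs1 rose (0 or 1 with 1 library left out). The part of these markers in the levels of Gabrg1 and Gabra2 was not tested.

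Genes whose log2 CPM followed each member over the 6 libraries were ranked by Pearson r among tested genes whose mean log2 CPM reached 3. For Gabrg1 they were Mblac2 (r = 0.997), Msl3l2 (0.991), Ankrd10 (0.989), Cep162 (0.988) and Dlk1 (0.988). For Gabra2 they were Paxbp1 (r = 0.998), Dlk1 (0.996), Cyb5r4 (0.994), Fkbp5 (0.987) and A330023F24Rik (0.987). Dlk1, an imprinted gene of chromosome 12, was thus among the 5 nearest to both; its levels were 39.6, 46.9 and 38.1 CPM in PHF2 t/g, against 16, 12 and 11.35 CPM in WT. For Gabra4 they were Snx15 (r = 0.99), Sirpa (0.988), Micall1 (0.986), Get4 (0.978) and Cldn10 (0.968). For Gabrb1 they were Lhfp (r = 0.997), Dapk1 (0.993), Gopc (0.993), Gm12992 (0.993) and Sdf2 (0.992). Each of the genes nearest to Gabrb1 had its lowest level in WT replicate 2. They describe these 6 libraries only.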

How the data were processed

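Hippocampal RNA in 3 PHF2 t/g and 3 WT libraries was read as 3′ end tags, per the labels' protocols (Trizol extraction, Lexogen QuantSeq kit). Bowtie2, edgeR and the build mm10 are named in the submitters' processing notes, with no version. Values as the authors deposited them are raw counts by gene symbol, not normalized, with 1 file per library. The counting program, annotation, strand setting and filters were not found in the sources used here. Of 23282 rows in a file, 44 carry a symbol already listed; these stayed apart.

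Groups and replicate numbers came from sample titles. Genes passing filterByExpr (12831) were scaled by TMM and tested with edgeR 4.0.16 in R 4.3.3 by the quasi-likelihood test with robust dispersion and a single genotype term, using Benjamini-Hochberg adjustment and a threshold of 0.05. A standard error is the log2 fold change divided by the root of the F statistic. A 95% interval is this error times the normal quantile on each side. It is narrower than the F test with few libraries implies. For likeness, log2 CPM had a prior count of 2. RefSeq GRCm38.p6 positions were matched to 23091 of 23238 distinct symbols, older names included. The procedure was also run on simulated counts, but the outcome is not given here and nothing is claimed from it. The total count of each library was 5512171 to 8844718, and intervals or floors from counts cover counting error only.

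The members, the lists and the tests were chosen with earlier results of these data known. Named were the 4 members; Phf2; tested subunit genes, with values for those called or with the 4 smallest p (values for some of these are not reported here); in each partner list the genes called and the one with the smallest p; flanking genes called and the nearest tested on each side; the 5 genes most like each member; Nnt, Wdfy1 and Entpd4; and markers that bear on a member. Gphn, Gabarap, Gad1, Slc12a5, Gabbr2, Cox7b2, N4bp2, Ociad1, Usp46, Aasdh, Neurod2, Mpped1, C1ql2, Fibcd1, Calb1 and the untested subunit genes were named outside this rule, after their values were seen. The values of Gabra5 and Gabrb2, which were not among the 4 with the smallest p, were also given outside it. Alternatives were scaling in edgeR by DESeq2 size factors or by library size, the DESeq2 1.42.0 test, limma-voom (limma 3.58.1), no filter on counts, a minimum CPM of 1 in 3 libraries, a non-robust fit, a replicate block, a fit without the rows Rn45s, Lrrc17 and Akap5, and each library left out. Leaving out WT replicate 2 and PHF2 t/g replicate 1 together was chosen after seeing the data.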

Additional observations from a re-analysis of the deposited data

How the results depend on the processing

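Over 16 alternatives the log2 fold changes of the members kept their signs: 0.9998 to 1.27 for Gabrg1, 0.93 to 1.10 for Gabra2, −0.27 to −0.08 for Gabra4 and 0.03 to 0.45 for Gabrb1, the last being lowest when PHF2 t/g replicate 1 was left out together with WT replicate 2. Library size alone put the median of all genes at 0.12 in place of 0.02; it gave Gabra4 −0.08 and Gabrb1 0.38, and split 277 calls into 207 higher and 70 lower, against 100 and 191. None of the 7 other subunit genes was called under any of the 16. Leaving out 1 library gave 49 to 392 calls over all genes, 0 to 3 among partner genes, 0 to 2 among flanking genes and −0.10 to 0.14 for Gabra5 (below 0 when PHF2 t/g replicate 1, PHF2 t/g replicate 2 or WT replicate 3 was left out). The share of Gabrb1 among beta tags differed by 1.66 points (PHF2 t/g minus WT), and by −0.493 to 3.58 with 1 library left out, being negative without WT replicate 2. Calls over all genes were 162 by limma-voom, 606 without the low-count filter, 149 without the robust fit and 140 with both of those libraries left out. Flanking calls were 0 with library size alone, limma-voom or a fit that was not robust, and 2 without the filter. Within 2 Mb 0 of 15 tested flanking genes were called, and within 10 Mb 4 of 65, of which 3 were higher and 1 lower. By Spearman rho 3, 3, 2 and 0 of the 5 genes most like Gabrg1, Gabra2, Gabra4 and Gabrb1 were again among the top 5. The cause of these shifts was not tested.

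With the replicate number as a block 299 genes were called in place of 291, and the members had log2 fold changes of 1.10, 0.99, −0.18 and 0.30. The deviations of same-numbered libraries correlated at −0.00445, 0.123 and 0.0846. PHF2 t/g replicates 2 and 3 correlated best with the WT library of their own number, and PHF2 t/g replicate 1 did not. Whether same-numbered samples share more than a number is not known. Depth limits Gabra2 most, with as few as 50 counts in a library.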
